A study of Homo sapiens with 6 samples.

Results

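The squamous lineage transcription factors TP63, SOX2, KLF4, KLF5, NOTCH1, GRHL2, ELF3 and TFAP2A and the surface protein gene CLCA2 were followed in HN12 cells given CPI-613. They were taken by gene symbol and gene ID, and all 9 were found among the 16327 genes with usable counts, with 30 of the 79004 transcripts. HN12 is a line of human squamous carcinoma of the head and neck, and CPI-613 is a lipoate analogue that inhibits the mitochondrial pyruvate dehydrogenase and α-ketoglutarate dehydrogenase complexes. Bulk RNA was sequenced from 3 libraries of HN12 cells given CPI-613 for 24 h and 3 libraries of HN12 cells given the solvent DMSO for 24 h, called Control. Its dose is not stated in these sources. Separate cultures are not mentioned in the labels, and each p-value therefore reflects no more than how the 6 libraries scatter, which could be technical.

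Squamous epithelium keeps a proliferating basal layer that feeds differentiating layers above it. p63, the product of TP63, maintains the basal state mostly through its ΔN form, which starts at an internal promoter and lacks the first transactivation domain. KLF4, ELF3, GRHL2 and NOTCH1 act towards differentiation or barrier formation in many epithelia, while SOX2, KLF5 and TFAP2A are linked to progenitor growth and the basal programme. CLCA2 encodes a cell surface protein of stratified epithelium named for its link to calcium-activated chloride conductance, and it is a known target of the p53 family.

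ELF3 and CLCA2 fell with CPI-613, ELF3 6.89-fold and CLCA2 8.58-fold by the estimate of edgeR's fit. Levels below are in CPM (counts scaled to the size of each library). ELF3 and CLCA2 were the only members of the 8 tested that passed edgeR's quasi-likelihood test with Benjamini-Hochberg adjustment. Of all 12671 genes tested, 3.18% passed that test in either direction, 1.94% as higher and 1.24% as lower. The share passing was 11.6% after a correction for GC content and length and 7.05% in DESeq2, where 3 and 3 of the 8 members passed: NOTCH1 joined ELF3 and CLCA2 after the correction, and KLF4 joined them in DESeq2. SOX2 was too low to test. In 6 of the 8 tested members the CPI-613 and Control libraries did not overlap in CPM, 1 above and 5 below, against 21.0% of all tested genes, of which 11.8% lay above and 9.17% below. The median log2 fold change was -0.49 over the tested members and 0.02 over all tested genes. Fewer cells of a type and less RNA per cell cannot be told apart in these bulk libraries.

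Total counts were 13458530 to 15486513 in CPI-613 libraries and 11531942 to 12508570 in Control libraries. At least 10 counts were held by 12283 to 12631 genes in CPI-613 libraries and 12523 to 12699 in Control libraries. All 7 markers of squamous epithelium were in the table and none passed the edgeR test; their summed level was 3948 to 10708 CPM in CPI-613 libraries and 6871 to 9698 CPM in Control libraries. Fibroblast markers summed to 31.0 to 41.4 CPM in CPI-613 and 35.6 to 41.6 CPM in Control libraries from the 3 of 6 that were in the table. Leukocyte markers summed to 40.9 to 82.5 CPM in CPI-613 and 61.7 to 92.8 CPM in Control libraries; PTPRC, which all leukocytes carry, reached no more than 0.16 CPM, and CD14 was the 1 marker that passed, as lower. Endothelial markers stayed between 0.214 and 0.615 CPM in CPI-613 libraries and 1.30 and 2.74 CPM in Control libraries, and melanocyte markers between 1.64 and 2.25 CPM in CPI-613 libraries and 2.44 and 4.35 CPM in Control libraries. The endothelial and melanocyte sums and CD14 were lower with CPI-613, and their part in the results was not tested.

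**Figure D1:**
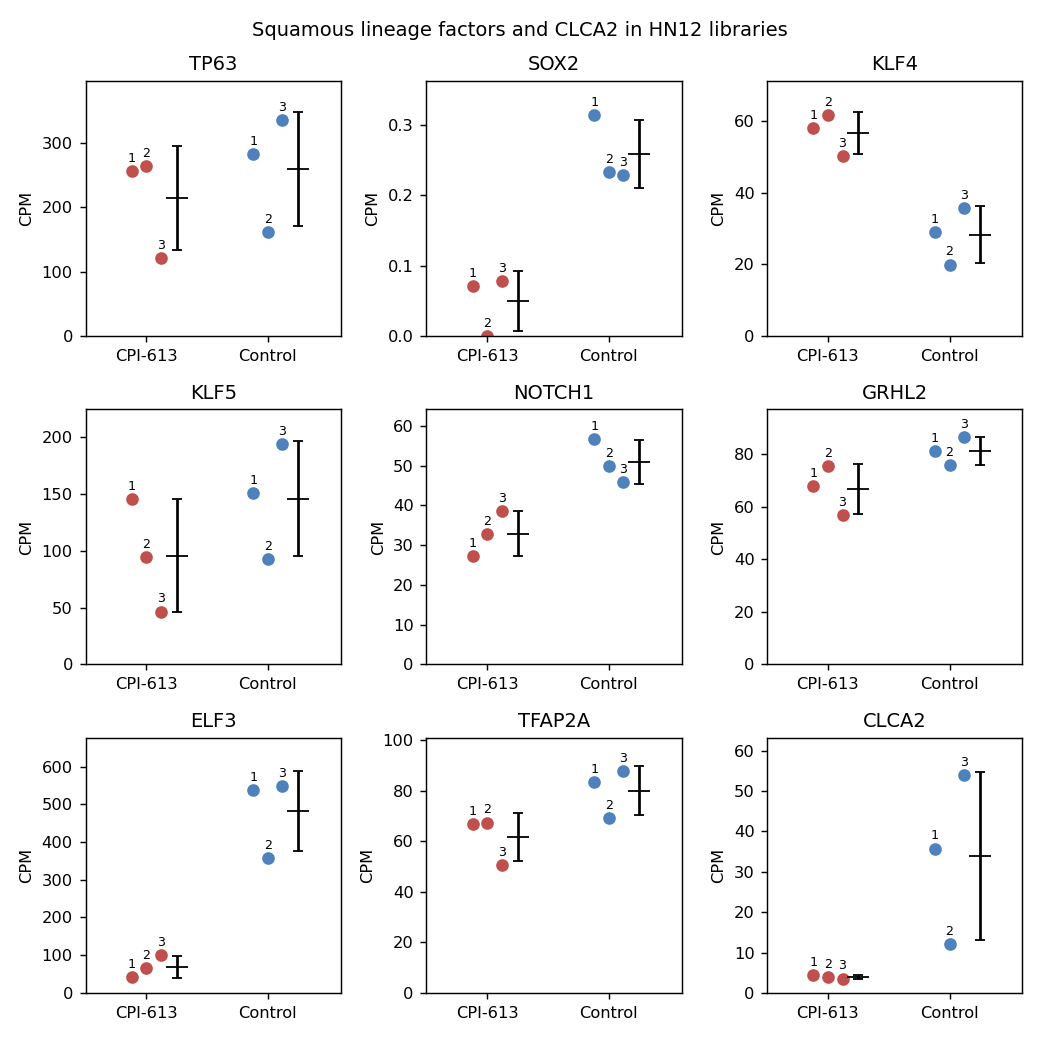
CPM on a linear axis, scaled by TMM, for each of the 9 members in the 3 CPI-613 and 3 Control libraries, with 1 numbered point a library and the mean with its SD beside the points. All CPI-613 libraries lie under the Control libraries for ELF3 (42.0 to 101 CPM against 359 to 547 CPM in Control) and CLCA2, and above them for KLF4, while those of TP63 and KLF5 mix with Control.

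The sequences upstream of the 2 genes that passed the test are shown because these genes carry the result. The 250 bases before each start, from RefSeq with the GRCh38.p14 build, lie on the + strand of chromosome 1 at chr1:202010337-202010586 for ELF3 and chr1:86423921-86424170 for CLCA2. Capitals mark matches to any of 9 motifs searched on both strands, which may overlap.
ELF3: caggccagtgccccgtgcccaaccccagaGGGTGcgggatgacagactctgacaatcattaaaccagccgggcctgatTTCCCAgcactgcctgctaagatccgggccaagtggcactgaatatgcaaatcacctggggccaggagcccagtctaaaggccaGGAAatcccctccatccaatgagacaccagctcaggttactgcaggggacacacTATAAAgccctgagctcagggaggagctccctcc
CLCA2: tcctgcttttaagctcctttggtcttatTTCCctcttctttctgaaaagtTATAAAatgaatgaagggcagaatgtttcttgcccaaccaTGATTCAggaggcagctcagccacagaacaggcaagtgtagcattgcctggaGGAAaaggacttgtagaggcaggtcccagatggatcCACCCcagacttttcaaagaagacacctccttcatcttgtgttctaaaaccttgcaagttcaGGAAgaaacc

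The motifs were the ETS core GGAA, the C/EBP-ATF element TGATGNAA, the AP-1 site TGANTCA, the KLF box CACCC, the RBPJ core TGGGAA, the GRHL site AACNGGTT, the AP-2 site GCCNNNGGC, the TATA box TATAAA and the p53-family half-site RRRCWWGYYY. N stands for any base, R for A or G, W for A or T and Y for C or T. Only exact matches were counted, so sites with a mismatch were missed. The RBPJ core contains the ETS core. The ELF3 window held a TATA box starting 34 bases before the start, an ETS core at 88 bases, an RBPJ core with its ETS core at 172 bases and a KLF box at 221 bases. The CLCA2 window held an ETS core at 222, 108 and 10 bases, an AP-1 site at 160 bases, a KLF box at 72 bases and a TATA box at 200 bases. Among 35116 promoters of the table, the ETS core was in 92.7%, the KLF box in 54.7%, the RBPJ core in 20.8%, the TATA box in 10.7% and the AP-1 site in 6.57%. Neither window held an exact match to the p53-family half-site, GRHL site, AP-2 site or C/EBP-ATF element, which 5.57%, 1.49%, 19.8% and 3.14% of all promoters held. This does not show that such sites are absent, since mismatches and bases outside the windows were not searched. A match is a description of these letters and says nothing of binding. An entry was found for 8 of the 9 members.

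ELF3, an ETS family activator of epithelial differentiation genes, is on chromosome 1 (gene ID 1999, 202010587 to 202017183). It stood at 42.0, 66.9 and 101 CPM in CPI-613 libraries 1 to 3 and at 537, 359 and 547 CPM in Control libraries 1 to 3. The highest CPI-613 library lay far under the lowest Control library. The means were 69.8 ± 29.4 CPM with CPI-613 and 481 ± 106 CPM in Control (SD, n = 3 each), a log2 fold change of -2.79 (SE 0.36, adjusted p = 0.0121 by edgeR's quasi-likelihood test). Among the 157 genes that passed as lower it had the 46th largest fall. The call was lost when CPI-613 replicate 2, Control replicate 1 or Control replicate 3 was left out, with adjusted p = 0.0965, 0.0808 and 0.0794 in edgeR, and the estimate ran from -3.14 to -2.52 over the leave-outs. Over all genes edgeR called 7 higher and 0 lower without CPI-613 replicate 2. It called 0 genes without Control replicate 1 or Control replicate 3. These losses were thus shared by every gene that passed as lower and are not particular to ELF3. With GC content and transcript length corrected for, it passed in all 6 leave-outs, and DESeq2 also called it in all 6.

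The 3 ELF3 transcripts all had estimates below 0 and none passed the test over all transcripts. The most abundant, NM_004433, held 557, 796 and 1156 estimated counts in CPI-613 libraries and 6127, 4065 and 6170 in Control libraries, which is 91.0% of ELF3 counts with CPI-613 and 87.7% in Control. Its log2 fold change was -2.80, and those of XM_005244942 and NM_001114309 were -3.64 and -2.89. Over the 40150 transcripts tested, edgeR gave adjusted p = 0.0951, 0.230 and 0.180. Over all members, 0 of 24 tested transcripts passed this test, against 0.0349% of all tested transcripts, while 8 had an unadjusted p under 0.05, against 6.31% of all, 6 lower and 2 higher; no other tool was run on transcripts.

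CLCA2 is also on chromosome 1 (gene ID 9635, 86424171 to 86456553). Its level was 4.42, 3.84 and 3.56 CPM in CPI-613 libraries and 35.7, 12.2 and 53.8 CPM in Control libraries, from 62, 50 and 46 counts and from 456, 157 and 705 counts. The CPI-613 libraries lay close together and under every Control library, and the Control libraries spread widely, with Control replicate 2 the lowest. The means were 3.94 ± 0.437 CPM with CPI-613 and 33.9 ± 20.9 CPM in Control (SD, n = 3 each), a log2 fold change of -3.10 (SE 0.54, adjusted p = 0.03002 by edgeR). It had the 37th largest fall of the 157. Without CPI-613 replicate 2, Control replicate 1 or Control replicate 3, edgeR's adjusted p was 0.171, 0.133 and 0.118, and the estimate ran from -3.51 to -2.60 over the leave-outs. In those edgeR fits no gene at all passed as lower, so the loss is not particular to CLCA2. Limma-voom gave adjusted p = 0.0533 and the gene matrix with a pseudocount of 1 gave 0.0563. With the GC and length correction the log2 fold change was -2.56 (adjusted p = 0.0136 by edgeR), and it was over the threshold in the same 3 leave-outs, at 0.0756, 0.0562 and 0.0515. DESeq2 called it in all 6 leave-outs.

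Control replicate 2 was the lowest Control library for 7 of the 8 tested members, all but NOTCH1. It held 0.272 of the mean of the other Control libraries for CLCA2, 0.522 for TP63, 0.540 for KLF5, 0.616 for KLF4 and 0.662 for ELF3. For TFAP2A, GRHL2 and NOTCH1 it held 0.809, 0.906 and 0.973, and the median over all tested genes was 0.994. CPI-613 replicate 3 held 0.463 of the mean of the other CPI-613 libraries for TP63 and 0.388 for KLF5, against a median of 1.06, and it was the highest CPI-613 library for ELF3 and NOTCH1. The reference transcripts of CLCA2, TP63 and KLF5 have a GC content of 39.95%, 42.5% and 47.0%, against a median of 48.9%. Those of KLF4 and ELF3, also low in Control replicate 2, have 55.0% and 56.0%. TFAP2A, GRHL2 and NOTCH1 have 49.4%, 49.8% and 62.9%. After the correction for GC content and length the TP63 estimate was 0.00 (SE 0.20). What sets these libraries apart was not tested.

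**Figure D2:**
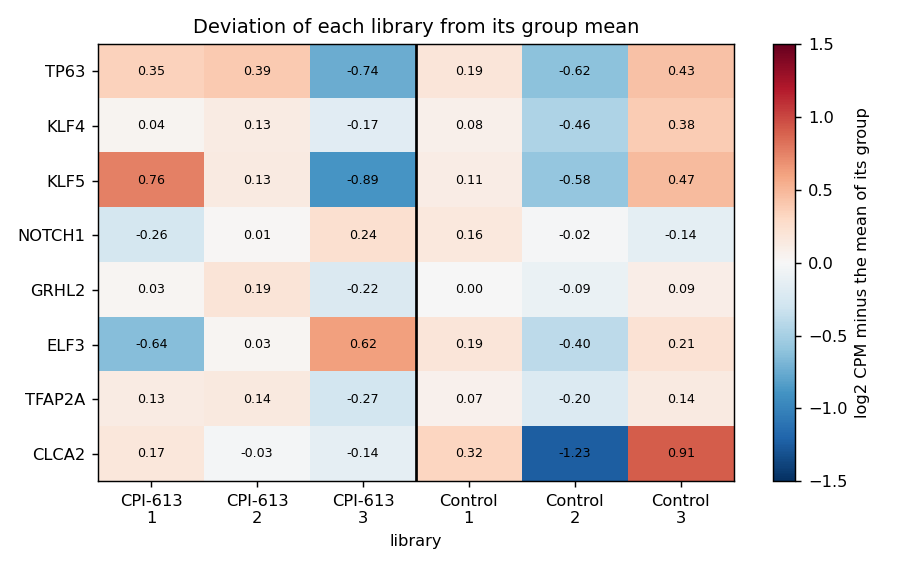
Log2 CPM of each tested member (down the side) in each library (along the foot) as a deviation from its own group mean, with blue for lower and red for higher. Control replicate 2 is below its group for TP63 (-0.62), KLF5 (-0.58) and CLCA2 (-1.23), and CPI-613 replicate 3 for TP63 (-0.74) and KLF5 (-0.89).

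TP63, the basal regulator on chromosome 3 (gene ID 8626, 189596746 to 189897276), stood at 257, 265 and 121 CPM in CPI-613 libraries and 282, 161 and 335 CPM in Control libraries. The groups overlapped. The means were 214 ± 80.9 CPM with CPI-613 and 260 ± 89.2 CPM in Control (SD, n = 3 each), a log2 fold change of -0.28 (SE 0.38, adjusted p = 0.814 by edgeR). The sign turned to 0.01 without CPI-613 replicate 3, so no direction is given.

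Most estimated TP63 counts were assigned to ΔN transcripts. Reads that isoforms share were split by the authors' counter, so the shares below are estimates and not reads counted at either start. In the GENCODE 29 annotation, which shares the hg38 build, the TA transcripts begin at 189631416 and the ΔN transcripts at 189789660 on chromosome 3. Of the 9 TP63 transcripts, 3 were linked there to the internal start, 2 to the upstream start and 4 to neither. The internal start took 86.7%, 83.9% and 83.4% of TP63 counts in CPI-613 libraries and 86.1%, 85.5% and 85.1% in Control libraries. The groups overlapped, with means of 84.7% ± 1.73 with CPI-613 and 85.6% ± 0.543 in Control (SD, n = 3 each), a difference of -0.89 percentage points. A two-sided exact permutation test gave p = 0.5, where 0.1 is the smallest these 6 libraries allow, and the adjusted p over the 3 classes was 0.7. The linked upstream transcripts took 4.28%, 3.23% and 6.60% with CPI-613 and 4.18%, 1.88% and 2.41% in Control (exact permutation p = 0.2, adjusted p = 0.6), and the unlinked ones 9.07%, 12.8% and 9.96% with CPI-613 against 9.68%, 12.6% and 12.5% in Control (exact permutation p = 0.7, adjusted p = 0.7). Other upstream TP63 transcripts of the reference were not analysed here.

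NM_001114980, the ΔNp63α transcript, held 2742, 2550 and 1036 estimated counts in CPI-613 libraries and 2513, 1509 and 3118 in Control libraries, which is 73.5% of TP63 counts with CPI-613 and 70.9% in Control, with a log2 fold change of -0.28 (SE 0.44). NM_001114981, the ΔNp63β transcript, had 291, 251 and 203 estimated counts with CPI-613 and 533, 216 and 559 in Control, a log2 fold change of -0.92 (SE 0.41, adjusted p = 0.858 by edgeR over all transcripts). NM_001114982, the ΔNp63γ transcript, had 88.0, 92.2 and 62.3 with CPI-613 and 57.4, 51.8 and 57.6 in Control, a log2 fold change of 0.43. The other 3 with a mean of at least 10 counts, NM_001329149, NM_001329964 and NM_001329146, had log2 fold changes of -0.39, 0.20 and -0.66. None of the 6 passed the test.

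**Figure D3:**
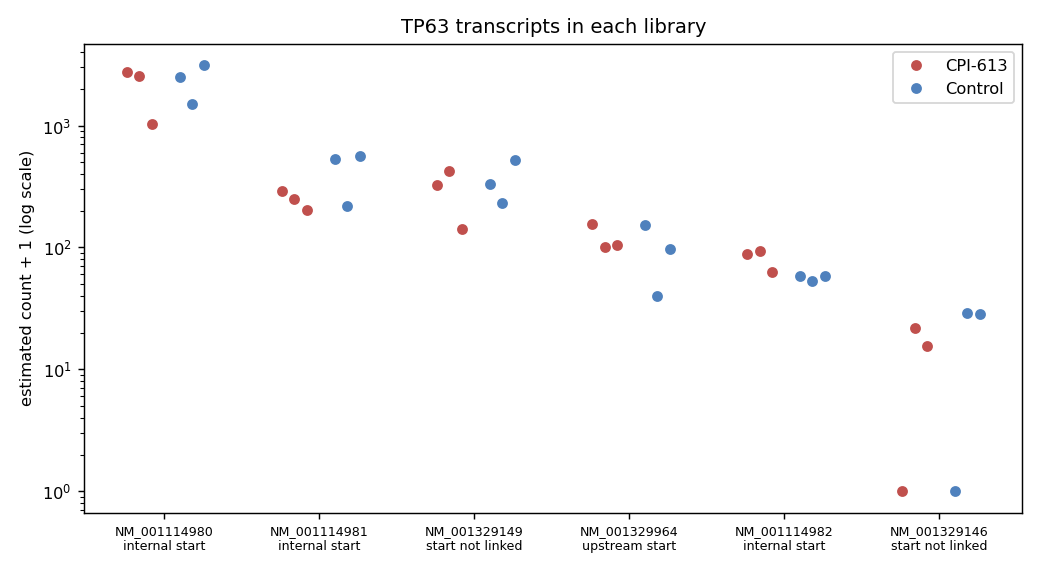
Estimated count + 1, on a log axis, of the 6 TP63 transcripts with a mean of at least 10 counts, with 1 point a library for CPI-613 (red) and Control (blue), and the linked start under each name. NM_001114980 dominates in every library, at 1036 to 2742 counts with CPI-613 and 1509 to 3118 in Control.

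SOX2, a pluripotency and squamous progenitor factor also on chromosome 3 (gene ID 6657, 181711925 to 181714436), had 1, 0 and 1 counts in CPI-613 libraries and 4, 3 and 3 counts in Control libraries. These are at or near the limit that counting allows and the gene did not pass the filter on low counts, so a difference was not detectable at this depth. With the filter dropped, edgeR gave adjusted p = 0.305.

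TFAP2A, the AP-2α factor of ectodermal and basal epithelium, is on chromosome 6 (gene ID 7020, 10396677 to 10419659). It stood at 66.7, 67.5 and 50.7 CPM in CPI-613 libraries and 83.5, 69.3 and 87.8 CPM in Control libraries. The groups did not overlap, CPI-613 lower, though only narrowly. The log2 fold change was -0.38 (SE 0.20, adjusted p = 0.498 by edgeR) and it did not pass under any alternative run.

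GRHL2, a grainyhead factor that keeps epithelial junction genes active, is on chromosome 8 (gene ID 79977). It stood at 67.8, 75.7 and 56.9 CPM in CPI-613 libraries and 81.2, 76.1 and 86.8 CPM in Control libraries. The highest CPI-613 library lay just under the lowest Control library. The log2 fold change was -0.28 (SE 0.19, adjusted p = 0.608 by edgeR), and it did not pass under any alternative run.

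KLF4, a Krüppel-like factor of differentiating epithelium on chromosome 9 (gene ID 9314, 107484852 to 107489769), stood at 58.2, 61.7 and 50.3 CPM in CPI-613 libraries and 29.003, 19.96 and 35.8 CPM in Control libraries. Every CPI-613 library lay above every Control library. The means were 56.7 ± 5.86 CPM with CPI-613 and 28.3 ± 7.96 CPM in Control (SD, n = 3 each), a log2 fold change of 1.01 (SE 0.26, adjusted p = 0.111 by edgeR). DESeq2 called it at adjusted p = 0.0197, and the alternatives ran from 0.00855 to 0.429, with 5 of 28 under the threshold. Its less abundant transcript NM_001314052 had 145, 157 and 82.0 estimated counts with CPI-613 and 26.6, 41.6 and 29.5 in Control, which is 16.9% of KLF4 counts with CPI-613 and 8.91% in Control, and a log2 fold change of 1.87 (SE 0.45, adjusted p = 0.276 by edgeR).

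KLF5, the Krüppel-like factor of proliferating basal cells, is on chromosome 13 (gene ID 688, 73054976 to 73077538). It stood at 146, 94.3 and 46.6 CPM in CPI-613 libraries and 151, 93.0 and 194 CPM in Control libraries. The groups overlapped widely, with means of 95.6 ± 49.7 CPM with CPI-613 and 146 ± 50.5 CPM in Control (SD, n = 3 each). The log2 fold change was -0.61 (SE 0.44, adjusted p = 0.653 by edgeR). Leaving out CPI-613 replicate 1 gave -1.05 and leaving out replicate 3 of that group gave -0.28, and of the 28 alternatives only DESeq2 without CPI-613 replicate 1 called it, at adjusted p = 0.0327.

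NOTCH1, a receptor whose signal drives keratinocyte differentiation and which is often mutated in these cancers, is on chromosome 9 (gene ID 4851, 136494433 to 136546048). It stood at 27.2, 32.9 and 38.6 CPM in CPI-613 libraries and 56.8, 50.01 and 45.98 CPM in Control libraries. The groups did not overlap, CPI-613 lower. The means were 32.9 ± 5.67 CPM with CPI-613 and 50.9 ± 5.49 CPM in Control (SD, n = 3 each), a log2 fold change of -0.63 (SE 0.22, adjusted p = 0.230 by edgeR). With the GC and length correction the estimate was -0.71 (SE 0.13, adjusted p = 0.0115 by edgeR), which passed, and 4 of 6 leave-outs of that fit passed as well; without CPI-613 replicate 2 and Control replicate 1 edgeR gave adjusted p = 0.0711 and 0.0772. Of the 28 alternatives, 6 passed.

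**Figure D4:**
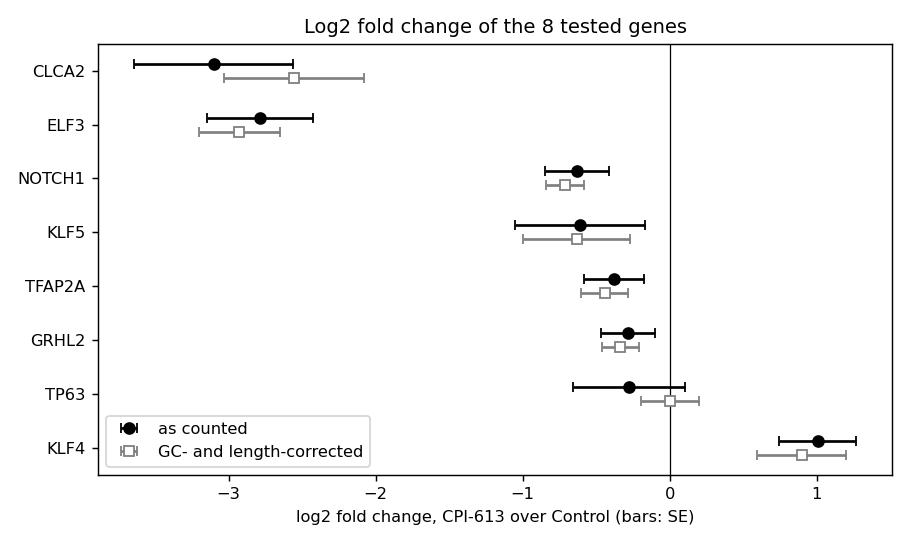
Log2 fold change of CPI-613 over Control for each of the 8 tested members, with bars for 1 standard error, as counted (filled circles) and after the GC and length correction (open squares). As counted, ELF3 (-2.79) and CLCA2 (-3.10) lie far to the left and KLF4 (1.01) to the right, while TP63 and GRHL2 lie at -0.28.

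Levels per transcript length, as FPKM in the deposited gene matrix, gave this order among the members. With CPI-613, TP63 stood highest at 61.67, 57.27 and 23.47 FPKM, then KLF5, ELF3, KLF4, TFAP2A and GRHL2, each overlapping its neighbour, then NOTCH1 at 3.18, 3.44 and 3.63 FPKM, CLCA2 at 1.35, 0.97 and 0.98 FPKM and SOX2, each apart from its neighbour. In Control, ELF3 stood first at 251.29, 154.67 and 265.26 FPKM, apart from TP63 at 71.65, 38.46 and 82.81 FPKM. TP63 and KLF5 overlapped and stood apart from TFAP2A at 28.72, 22.56 and 29.18 FPKM and GRHL2 at 18.05, 15.95 and 18.8 FPKM, which were apart from each other. KLF4 overlapped with CLCA2 and CLCA2 with NOTCH1, and SOX2 was last, at 0.03, 0 and 0.03 FPKM with CPI-613 and 0.15, 0.11 and 0.11 FPKM in Control. By mean FPKM over 16330 genes ELF3 ranked 3506 with CPI-613 and 354 in Control, and CLCA2 ranked 10997 with CPI-613 and 6374 in Control.

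Among tested genes averaging 2 or more in log2 CPM, the 3 that followed ELF3 most closely in log2 CPM over the 6 libraries were KRT15, a basal keratin, DHRS3, a retinaldehyde reductase, and CEMIP, a hyaluronan-degrading protein, each with Pearson's r of 0.999. KRT15 stood at 14.3, 20.8 and 29.9 CPM in CPI-613 libraries and 158, 106 and 160 CPM in Control libraries. The log2 fold changes were -2.71 for KRT15, -3.29 for DHRS3 and -3.36 for CEMIP, with adjusted p = 0.0106, 0.0116 and 0.0144 by edgeR and of up to 0.0878, 0.0928 and 0.110 over the alternatives. For CLCA2 they were TRIM34, STC1 and CA2, with r of 0.997, 0.994 and 0.994. STC1, a secreted glycoprotein hormone, stood at 9.20, 7.53 and 7.51 CPM with CPI-613 and 89.99, 29.97 and 96.8 CPM in Control. STC1 and CA2, a carbonic anhydrase, fell with log2 fold changes of -3.16 and -2.72 (adjusted p = 0.0173 and 0.0208 by edgeR, up to 0.122 and 0.138 over the alternatives), and TRIM34 did not pass, at -0.97 (adjusted p = 0.120 by edgeR). TRIM34 passed in 8 of 28 alternatives, among them DESeq2 and, at adjusted p = 0.0381 by edgeR, the GC and length correction, and the alternatives ran from 0.0137 to 0.528. These libraries form 2 groups, so a shared difference between them gives much of each r, and the values are a description.

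Among the paralogs of the members, 28 of 41 were tested and 1 fell, TP73, with none higher and a median log2 fold change of -0.02 against 0.02 for all tested genes. Over all genes tested 1.24% fell and 1.94% rose. After correction for GC content and length 3 were higher and 3 lower, against 838 and 633 of all 12671 genes. The median was then -0.10 against 0.04. DESeq2 called 0 higher and 2 lower, against 491 and 402 of all. TP73 is the p53-family relative of TP63. It stood at 5.42, 9.76 and 15.03 CPM in CPI-613 libraries and 59.5, 49.8 and 53.8 CPM in Control libraries, a log2 fold change of -2.43 (SE 0.38, adjusted p = 0.0214 by edgeR, up to 0.143 over the alternatives). The groups did not overlap. Its call was also lost without Control replicate 2.

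Of 37 other squamous regulators 31 were tested and 0 passed edgeR's test, with a median of -0.16. At an unadjusted p under 0.05 in edgeR there were 2 higher and 7 lower, against 1071 and 752 of the 12671 genes tested. DESeq2 called 0 higher and 4 lower, against 491 and 402 of all. With the GC and length correction edgeR called 3 higher and 6 lower, against 838 and 633 of all, with a median of -0.19. In CPM, 1 of the 31 had CPI-613 above Control without overlap and 8 below, against 11.8% and 9.17% of all genes tested. The most abundant were JUNB, an AP-1 subunit, at 572 ± 247 CPM with CPI-613 and 410 ± 45.8 CPM in Control, and RXRA, a retinoid X receptor, at 241 ± 82.9 CPM with CPI-613 and 269 ± 8.26 CPM in Control (SD, n = 3 each). Neither passed, at adjusted p = 0.622 and 0.847 by edgeR, and each passed in 1 alternative, at adjusted p = 0.0401 in DESeq2 for JUNB and 0.0448 in edgeR for RXRA. The JUNB estimate of 0.48 ran from 0.08 to 0.76 over the leave-outs, and the sign of RXRA turned without CPI-613 replicate 1, to 0.09.

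All 35 p63 target genes of the list were tested: 4 rose, 1 fell and 30 did not pass, with a median of -0.18. Over all genes tested 1.94% rose and 1.24% fell, with a median of 0.02. With the GC and length correction 8 were higher and 6 lower, against 838 and 633 of all 12671 genes. The median turned to 0.05, against 0.04 over all. DESeq2 called 7 higher and 5 lower, against 491 and 402 of all. In CPM, 9 had CPI-613 above Control without overlap and 6 below, against 11.8% and 9.17% of all. LAMB3, a laminin chain of the basement membrane, and ITGB4, of the hemidesmosome that fixes basal cells to that membrane, both rose. Their log2 fold changes were 1.72 (SE 0.22, adjusted p = 0.0116 by edgeR) and 1.24 (SE 0.25, adjusted p = 0.0481 by edgeR). CSTA, a cornified envelope protease inhibitor, also rose. CDKN1A, the cell cycle inhibitor p21 that ΔN p63 is known to repress, stood at 181, 260 and 358 CPM with CPI-613 and 66.5, 54.3 and 86.4 CPM in Control, a log2 fold change of 1.95 (adjusted p = 0.0216 by edgeR). ADA, adenosine deaminase, fell to 4.06, 5.92 and 9.53 CPM with CPI-613 against 41.0, 17.2 and 40.5 CPM in Control, a log2 fold change of -2.34 (adjusted p = 0.0459 by edgeR).

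Of 51 Notch pathway genes 46 were tested: 3 rose and 1 fell, with a median of -0.06. Over all genes tested 1.94% rose and 1.24% fell, with a median of 0.02. Corrected for GC content and length, 4 were higher and 4 lower, against 838 and 633 of all 12671 genes. The median turned to 0.01, against 0.04 over all. DESeq2 called 3 higher and 1 lower, against 491 and 402 of all. In CPM, 7 had CPI-613 above Control without overlap and 4 below, against 11.8% and 9.17% of all. HES6, an inhibitor of HES1, rose to 6.13, 6.38 and 7.44 CPM with CPI-613 against 0.549, 0.699 and 0.916 CPM in Control, a log2 fold change of 3.19 (SE 0.31, adjusted p = 0.00720 by edgeR). The Notch target HEY1 rose to 5.06, 4.54 and 2.71 CPM with CPI-613 against 1.097, 1.01 and 0.840 CPM in Control. The ligand DLL4 rose to 1.35, 1.46 and 1.63 CPM with CPI-613 against 0.314, 0.466 and 0.458 CPM in Control. Its Control levels are near the limit of counting, as 0.314 CPM in Control library 1 is 4 counts. Their log2 fold changes were 2.05 and 1.82 (adjusted p = 0.0273 and 0.0363 by edgeR), and the calls were lost in 10 and 17 of 28 alternatives, for DLL4 also in DESeq2. HES2 fell to 8.84, 12.2 and 21.7 CPM with CPI-613 against 62.6, 44.0 and 80.2 CPM in Control, a log2 fold change of -2.13 (adjusted p = 0.0390 by edgeR).

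Of 30 genes of squamous differentiation 13 were tested, 2 fell and none rose, with a median of -1.03. Over all genes tested 1.24% fell and 1.94% rose, with a median of 0.02. Once corrected for GC content and length, 1 was higher and 4 lower, against 838 and 633 of all 12671 genes. The median was then -0.82, against 0.04 over all. DESeq2 called 0 higher and 4 lower, against 491 and 402 of all. In CPM, 2 had CPI-613 above Control without overlap and 6 below, against 11.8% and 9.17% of all. KRT13, a keratin of non-cornified mucosa, stood at 0.0713, 1.08 and 1.01 CPM in CPI-613 libraries and 128, 91.3 and 139 CPM in Control libraries, a log2 fold change of -7.38 (SE 0.67, adjusted p = 0.00692 by edgeR). KRT1, a keratin of suprabasal skin, stood at 0.0713, 0.0769 and 0 CPM with CPI-613 and 2.12, 3.34 and 1.68 CPM in Control (adjusted p = 0.0102 by edgeR). In CPI-613 library 1, 0.0713 CPM is 1 count. KRT1 with CPI-613 and KRT13 in that library are thus at the limit of counting, and the size of their falls is uncertain. Every gene of these lists given with values that passed in the 6 libraries lost its call without CPI-613 replicate 2, Control replicate 1 or Control replicate 3, each on its own. Over all genes edgeR called 7 higher and 0 lower in the first of these fits and 0 genes in the others. The loss is thus not particular to the genes of these lists. The calls of CDKN1A, ITGB4, HES2, HEY1 and DLL4 were lost without Control replicate 2 as well, and that of DLL4 without CPI-613 replicate 3. Over all alternatives edgeR, DESeq2 or limma gave adjusted p of up to 0.0650 for KRT13, 0.0720 for HES6, 0.0805 for KRT1, 0.114 for LAMB3, 0.140 for CDKN1A, 0.187 for HEY1, 0.211 for HES2, 0.235 for ADA, 0.304 for ITGB4 and 0.533 for DLL4. CSTA was named after its values were seen, to complete the count.

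**Figure D5:**
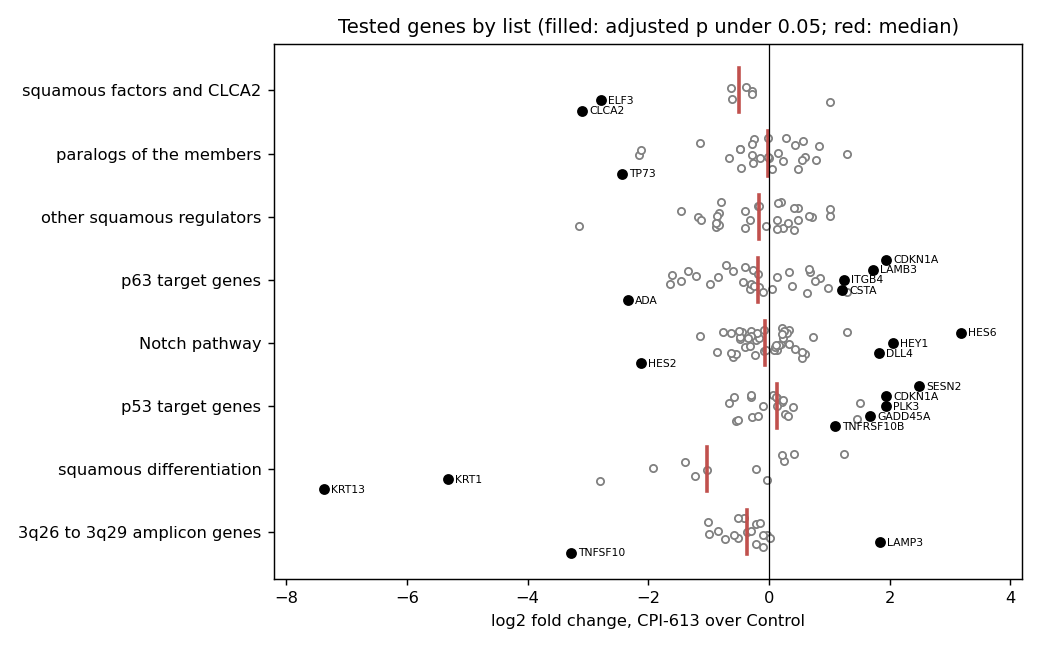
Log2 fold change of CPI-613 over Control for each tested gene of the lists, filled where adjusted p was under 0.05, with the median of each list in red. The medians lie at -0.49 for the members, -1.03 for squamous differentiation and 0.14 for p53 targets.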

How the data were processed

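RNA was extracted with TRIzol and libraries were made with a NEBNext Ultra II kit and sequenced on DNBSEQ, as the labels' protocols state. STAR 2.5, HTSeq, CASAVA, DESeq2, edgeR 3.16.5 and hg38 appear in the submitters' processing notes, without roles; strandedness and annotation are not given there. The authors deposited estimated counts per transcript, and a gene matrix of values taken as deposited FPKM because in 1179 single-transcript genes the implied length varied by a median of 0.268% between libraries.

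Of the transcripts, 27 with a date in place of a number were left out; no member was touched. Counts were summed per gene and rounded. The 53 genes without a symbol held 0.0163% of counts and stayed in the test. Genes passed edgeR's filterByExpr (10 counts in enough libraries, 15 in total), had TMM scaling and were tested in edgeR 4.0.16 (quasi-likelihood, group only, two-sided), with Benjamini-Hochberg adjustment over 12671 genes at 0.05. CPM use TMM-scaled totals. DESeq2 1.42.0, limma 3.58.1 and a correction for GC content and length (splines with 5 degrees of freedom, GENCODE 29) were alternatives, as was limma on log2(FPKM + 1) and log2(FPKM + 0.1), where fold changes of low genes are understated. GC content and length were those of the longest protein-coding transcript of each gene. The code was tested on simulated data.

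Members and lists were chosen with earlier results of these data known; some list genes are not reported here and were taken out of the list counts. Named genes were all 9 members, TP63 transcripts with a mean of 10 counts, up to 4 called genes a list by size (2 by CPM where none was called) and 3 by correlation among genes averaging 2 or more in log2 CPM.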

Additional observations from a re-analysis of the deposited data

How the results depend on the processing

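The directions of ELF3 and CLCA2 held under all 28 alternatives run, and ELF3 passed in 25 and CLCA2 in 20 of them. Over all genes 246 rose and 157 fell, 61.0% of calls higher; by library size alone 229 rose and 259 fell, 46.9% higher, and the median over all genes was -0.17 against 0.02. DESeq2 called 491 and 402 genes with 1 member higher (KLF4), and the GC and length correction 838 and 633 genes with 3 members lower. Limma-voom and the gene matrix with a pseudocount of 1 called 1 member lower. Leaving out 1 library gave 0 to 467 genes higher and 0 to 438 lower in edgeR, 350 to 1481 and 255 to 1157 with the correction and 223 to 866 and 158 to 1595 in DESeq2 (chosen after seeing the data), with 0 to 1 members higher and 0 to 3 lower over all of these; edgeR called 0 genes without Control replicate 1 (1064 at an unadjusted p under 0.05, DESeq2 245 higher and 159 lower) or Control replicate 3 (1118, DESeq2 246 and 158). Without CPI-613 replicate 2 edgeR called 7 genes higher and 0 lower, and DESeq2 called 223 and 189. The replicate numbers did not pair the libraries: same-numbered libraries correlated at 0.457, -0.0960 and -0.608, and no CPI-613 library correlated best with its own number, while of the Control libraries replicate 1 did. With the replicate block 109 genes rose and 82 fell and ELF3 and CLCA2 passed at adjusted p = 0.0169 and 0.0476 by edgeR; with the block and the GC correction 484 rose and 405 fell. TP63 turned to 0.00 with the GC correction, with or without the block (0.00172 and 0.00496), and it lay between -0.55 and 0.14 over the leave-outs. RXRA lay between -0.50 and 0.0854 over the leave-outs, turning without CPI-613 replicate 1 (edgeR and DESeq2, the second at 0.0625). NM_001114980 lay between -0.53 and 0.0294, turning without CPI-613 replicate 3, and NM_001329964 between -0.17 and 0.72, turning without Control replicate 2. The ΔN share difference stayed between -1.88 and -0.27 percentage points. The cause was not tested. The alternative of dividing TP63 counts by length was not run, since the reference gives a length for 5 of 9 transcripts. The counts of SOX2 limit what depth can show.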

Other observations

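Of 25 p53 target genes, all tested, 5 rose with CPI-613 and none fell, against 1.94% and 1.24% of all genes tested. The median log2 fold change was 0.14 against 0.02 for all genes tested. Of the estimates 16 lay above 0 and 9 below, among the latter MDM2 (-0.29) and SESN1 (-0.54), which did not pass. In CPM, 7 had every CPI-613 library above every Control library and none the reverse, against 11.8% and 9.17% of all genes tested. After correction for GC content and length 7 were higher and none lower, against 838 and 633 of all 12671 genes. DESeq2 called 6 higher, against 491 of all. SESN2, a stress-induced inhibitor of mTORC1 signalling that ATF4 also induces, stood at 231, 272 and 359 CPM in CPI-613 libraries and 47.6, 62.98 and 42.9 CPM in Control libraries, a log2 fold change of 2.49 (SE 0.25, adjusted p = 0.00720 by edgeR). GADD45A, a stress response gene, stood at 90.6, 87.9 and 87.3 CPM with CPI-613 and 22.5, 37.9 and 23.1 CPM in Control, a log2 fold change of 1.67 (adjusted p = 0.0202 by edgeR). CDKN1A, also on the p63 list, PLK3 (1.94, adjusted p = 0.0360 by edgeR) and TNFRSF10B rose too; TNFRSF10B was named after its values were seen. The calls of SESN2, GADD45A, CDKN1A and PLK3 were lost without CPI-613 replicate 2, Control replicate 1 or Control replicate 3, each on its own, with adjusted p of up to 0.0720, 0.133, 0.140 and 0.197 in edgeR, and that of CDKN1A also without Control replicate 2. Without CPI-613 replicate 2 edgeR called only 7 genes of all as higher. Without Control replicate 1 or Control replicate 3 it called 0, so these losses are not particular to p53 targets.

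SOX2 and TP63 lie in the stretch of chromosome 3 that squamous cancers often amplify. Of 20 other genes of that stretch 19 were tested, 1 rose and 1 fell, against 1.94% and 1.24% of all genes tested. Below 0 lay 17 of the 19 estimates, against 6106 of the 12671 over all genes. Their median was -0.36 against 0.02 for all genes, and -0.12 against 0.04 after the GC and length correction. A shared fall of these genes was not tested. TNFSF10, the death ligand TRAIL, fell to 2.28, 1.92 and 1.63 CPM with CPI-613 against 23.2, 8.39 and 25.6 CPM in Control, a log2 fold change of -3.29 (SE 0.48, adjusted p = 0.0165 by edgeR). LAMP3, a lysosomal membrane protein of the unfolded protein response, rose to 26.6, 20.8 and 15.2 CPM with CPI-613 against 6.19, 5.36 and 5.96 CPM in Control, a log2 fold change of 1.84 (SE 0.29, adjusted p = 0.0215 by edgeR). Both calls were lost in the same 3 leave-outs, with adjusted p of up to 0.120 for TNFSF10 and 0.148 for LAMP3 in edgeR, and that of LAMP3 also without Control replicate 2. In each of those 3 edgeR fits at most 7 genes of all were called.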
